A study of Mus musculus with 6 samples.

Results

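The genes described here are 46 members of the mouse Wnt pathway: 12 Wnt ligands, 2 genes of ligand processing and export, 9 Frizzled receptors, 2 LRP co-receptors, 6 secreted antagonists, 2 receptor-removing ligases, 5 Dishevelled genes and their inhibitors, 4 genes of the destruction complex and 4 TCF/LEF factors. They were picked by gene symbol from a table of 53700 genes, and each symbol matched a single gene. The table holds RNA-seq of SL4 cells, a mouse colorectal cancer line that expresses luciferase, in 2 groups of 3 libraries. The control group is SL4 without SEMA6A overexpression, and the labels do not say whether it carried an empty vector. The study's text names it both SL4 and pLV-Control. The pLV-SEMA6A group is SL4 with a lentivirus driving SEMA6A, a transmembrane semaphorin. Neither the labels nor the study's methods say whether the overexpressing line is 1 clone or whether the libraries came from separate cultures, so p-values measure only the spread between these libraries, which may be technical. An effect of SEMA6A cannot be told apart from another difference between these cell lines.

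Wnt proteins are secreted lipid-modified ligands. They bind a Frizzled receptor together with an LRP co-receptor, and the signal passes through Dishevelled to a destruction complex that otherwise marks beta-catenin for breakdown. Stabilised beta-catenin then joins TCF/LEF factors on its target genes, among them feedback inhibitors such as Axin2, Nkd1, Notum, Rnf43 and Znrf3. In the intestinal epithelium the pathway maintains stem cells, and mutations that switch it on are common in colorectal cancer.

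Values are TPM, a measure of transcript abundance that is scaled by gene length, so levels of different genes can be set side by side. As the labels state, the pLV-SEMA6A libraries had Sema6a at 98.68, 118.42 and 112.22 TPM, and each control library listed it at 0. Of 12 colon epithelium markers, 11 lay under a mean of 1 TPM and Epcam, Cdx2 and Cdx1 were listed at 0 in every library, so the labelled origin was not visible in these markers. Their summed level was 2.11 to 2.96 TPM in control and 0.68 to 1.60 TPM in pLV-SEMA6A. Lgals4, the only one tested, held most of the control sum. It was at 1.78, 2.33 and 2.33 TPM in control and 0, 0.28 and 0.81 TPM in pLV-SEMA6A, and passed the filter through its control level. No other of the 12 exceeded 0.39 TPM in any library, so the lower sum rested on this gene. The summed level of 10 fibroblast or mesenchyme markers was 1046 to 1080 TPM in control and 1660 to 1706 TPM in pLV-SEMA6A. None of these 10 was at 0 in every library, and 7 were tested. By the rule given below, 4 of the 7 were called higher (Vim, Acta2, Col3a1 and Col1a1), beside 5.12% of all genes tested. The 2 called lower, beside 10.8% of all genes, were Pdgfra and Pdgfrb, the latter at -0.49 and not called with centred libraries. Pdgfra, with means of 1.76 TPM in control and 0.78 TPM in pLV-SEMA6A, passed the filter through its control level. Vim alone made up most of the sum, with means of 896 and 1407 TPM. The part of this shift in the results on Wnt genes was not tested, and in such bulk libraries fewer cells of a type and less RNA per cell cannot be told apart. Leukocyte markers summed to 0.82 to 2.06 TPM and endothelial markers to 0.19 to 0.56 TPM, with defining markers such as Cd3e, Itgam and Cdh5 listed at 0 throughout.

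Of the 46 members, 26 reached a mean of 1 TPM over the 6 libraries and were tested, 20 lay below it and 5 of those 20 were listed at 0 in every library. A gene was called where limma with Benjamini-Hochberg adjustment over 12510 genes gave an adjusted p under 0.05 and the log2 fold change on log2(TPM + 1) exceeded 0.5 in either direction. By this rule 5 members were called, beside 15.9% of all genes tested. The 2 that rose in pLV-SEMA6A cells were the ligand Wnt7b and the receptor Fzd6, beside 5.12% of all genes called higher. The 3 that fell were Porcn, Fzd7 and Dkk2, beside 10.8% of all genes called lower. With no minimum fold change, 15 members passed, 6 higher and 9 lower, beside 47.6% of all genes, and 11 did not pass. The 3 libraries of one group lay wholly above or below those of the other for 18 of the 26 members, beside 58.5% of all genes.

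The median log2 fold change of the 26 tested members was -0.13, and that of all 12510 genes was -0.06. Centring each library on its median moved every log2 fold change by 0.09 upwards and changed the split of all called genes from 640 higher and 1347 lower to 1002 higher and 961 lower. With centred libraries the members called were Wnt7b, Fzd6 and Wls as higher and Porcn and Dkk2 as lower, and Fzd7 fell just within the limit at -0.50. Members and named genes whose call differs between the scales are therefore given on both.

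**Figure D1:**
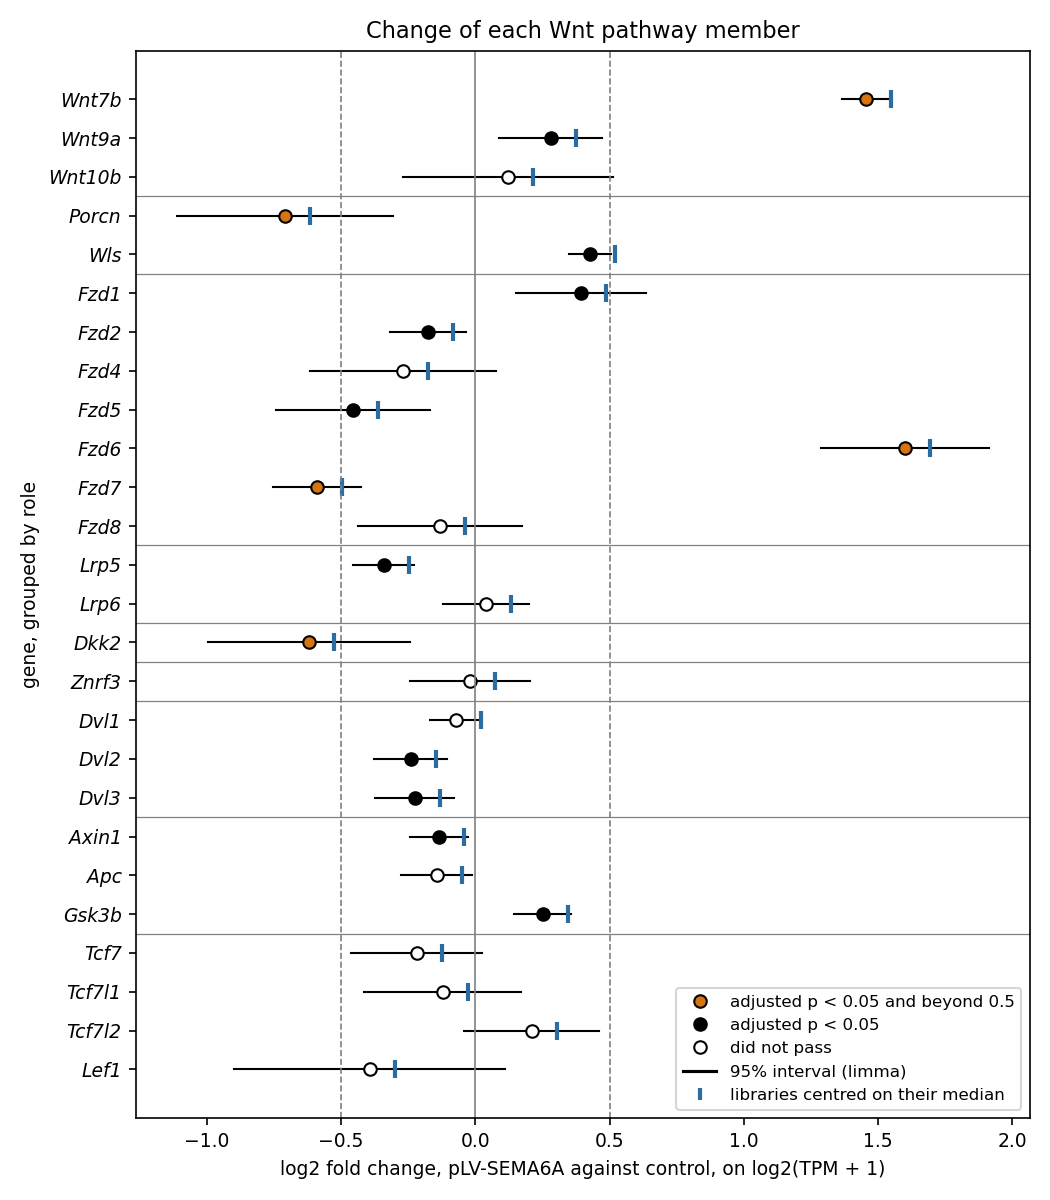
Log2 fold change (horizontal axis, pLV-SEMA6A against control on log2(TPM + 1)) of the 26 tested members grouped by role, with 95% limma intervals as lines, called members in orange, members passing without the minimum fold in black, others open, and blue ticks for centred libraries. Wnt7b at 1.46 and Fzd6 at 1.60 lie far to the right of the other members, all of which lie between -0.71 and 0.43.

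Promoter sequence was looked up for the members in RefSeq on GRCm38.p6, a build other than that of the deposited values. Windows were found for 30 of the 46 members, 39 windows in all, and Wnt7b, Fzd6 and Porcn were not among them. The 250 bases before the annotated start are shown for Fzd7 and Dkk2, the called members with a window that fell, and for Wls, the called member with a window that rose on the centred scale, so that their upstream sequence can be read beside their values. Capitals mark the CCAAT box, which also reads as its reverse complement on the opposite strand, and the TATA box.
Fzd7: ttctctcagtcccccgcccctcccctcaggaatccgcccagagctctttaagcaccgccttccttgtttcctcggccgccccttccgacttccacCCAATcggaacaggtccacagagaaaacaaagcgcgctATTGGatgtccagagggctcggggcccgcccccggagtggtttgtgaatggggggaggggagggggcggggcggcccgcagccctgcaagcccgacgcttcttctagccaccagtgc
Dkk2: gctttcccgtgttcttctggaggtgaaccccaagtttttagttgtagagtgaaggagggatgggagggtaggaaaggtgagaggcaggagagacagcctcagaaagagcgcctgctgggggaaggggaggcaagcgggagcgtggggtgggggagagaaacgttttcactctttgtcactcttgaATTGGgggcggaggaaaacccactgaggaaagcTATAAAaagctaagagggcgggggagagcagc
Wls: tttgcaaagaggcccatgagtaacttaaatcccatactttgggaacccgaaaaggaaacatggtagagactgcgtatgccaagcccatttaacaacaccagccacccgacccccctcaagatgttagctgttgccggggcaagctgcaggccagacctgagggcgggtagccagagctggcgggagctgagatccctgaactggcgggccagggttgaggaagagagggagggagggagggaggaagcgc

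These windows lie on the plus strand, at chr1:59481897-59482146 for Fzd7, chr3:132085042-132085291 for Dkk2 and chr3:159839400-159839649 for Wls. The Fzd7 window held 2 CCAAT boxes and 65.2% G and C. The Dkk2 window held 1 CCAAT box and 1 TATA box, the latter near its downstream end, with 55.6% G and C, and the Wls window held no match to any motif searched. Both strands of 32851 windows of the same length were searched. The TCF/LEF core, spelled CTTTGAT, was found in 3.21% of them and in 2 of the 39 member windows, those of Wnt5b and Wnt11. The CCAAT box, spelled CCAAT, was found in 33.8% of all windows and in 8 of the 39 member windows. The TATA box, spelled TATAAA, was found in 12.4% of all windows and also in 8 of the 39 member windows. A match is a run of letters and not a bound site, and the absence of one says only that these letters are not in the window.

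Among the ligands, Wnt7b was by far the most abundant in both groups and rose in pLV-SEMA6A cells. Its levels were 31.14, 32.28 and 30.80 TPM in control and 88.45, 90.22 and 85.08 TPM in pLV-SEMA6A. Each pLV-SEMA6A library was therefore well above each control library, with a mean of 31.4 ± 0.775 TPM in control against 87.9 ± 2.61 TPM (SD, n = 3 each) and a ratio of 2.80. The log2 fold change was 1.46 with a standard error of 0.04 and a limma adjusted p of 1.97e-06, and it ranked 72 among all tested genes ordered from the highest change. It ranged from 1.44 to 1.48 when any 1 library was left out. Wnt7b is a ligand known from lung, placenta and brain vessel development, where it signals through beta-catenin.

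Wnt9a, a ligand of joint and liver development, was the next most abundant, at 4.50, 4.53 and 4.97 TPM in control and 5.91, 6.12 and 5.61 TPM in pLV-SEMA6A. Its log2 fold change of 0.28 passed limma at an adjusted p of 0.0278 and stayed under the minimum of 0.5. The adjusted p was 0.0733 to 0.0815 without control replicate 1, control replicate 2, pLV-SEMA6A replicate 1 or pLV-SEMA6A replicate 2, and 0.0384 or 0.0462 without the third library of either group. Wnt10b, a ligand that restrains fat cell formation, overlapped between the groups, with means of 1.92 and 2.19 TPM and a limma adjusted p of 0.567. The interval of its log2 fold change ran from -0.27 to 0.51.

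The other 9 ligands lay below the filter. Wnt2, Wnt5a and Wnt7a were listed at 0 in all libraries. Wnt2b, Wnt4, Wnt5b, Wnt6, Wnt10a and Wnt11 reached at most 0.65 TPM. Wnt11, a ligand mostly tied to cell movement, was at 0.49, 0.23 and 0.65 TPM in control and 0.15, 0.22 and 0.00 TPM in pLV-SEMA6A, levels too low to test here. Summed over the 12 ligands, control libraries held 38.94, 40.16 and 39.02 TPM and pLV-SEMA6A libraries 96.99, 99.83 and 93.37 TPM. The share of Wnt7b in that sum was 79.8% ± 0.745 in control and 90.9% ± 0.454 in pLV-SEMA6A (SD, n = 3 each), and the share of Wnt9a was 11.9% ± 0.774 and 6.08% ± 0.0626. The ligand pool was thus larger in each pLV-SEMA6A library, and Wnt7b made up more of it.

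**Figure D2:**
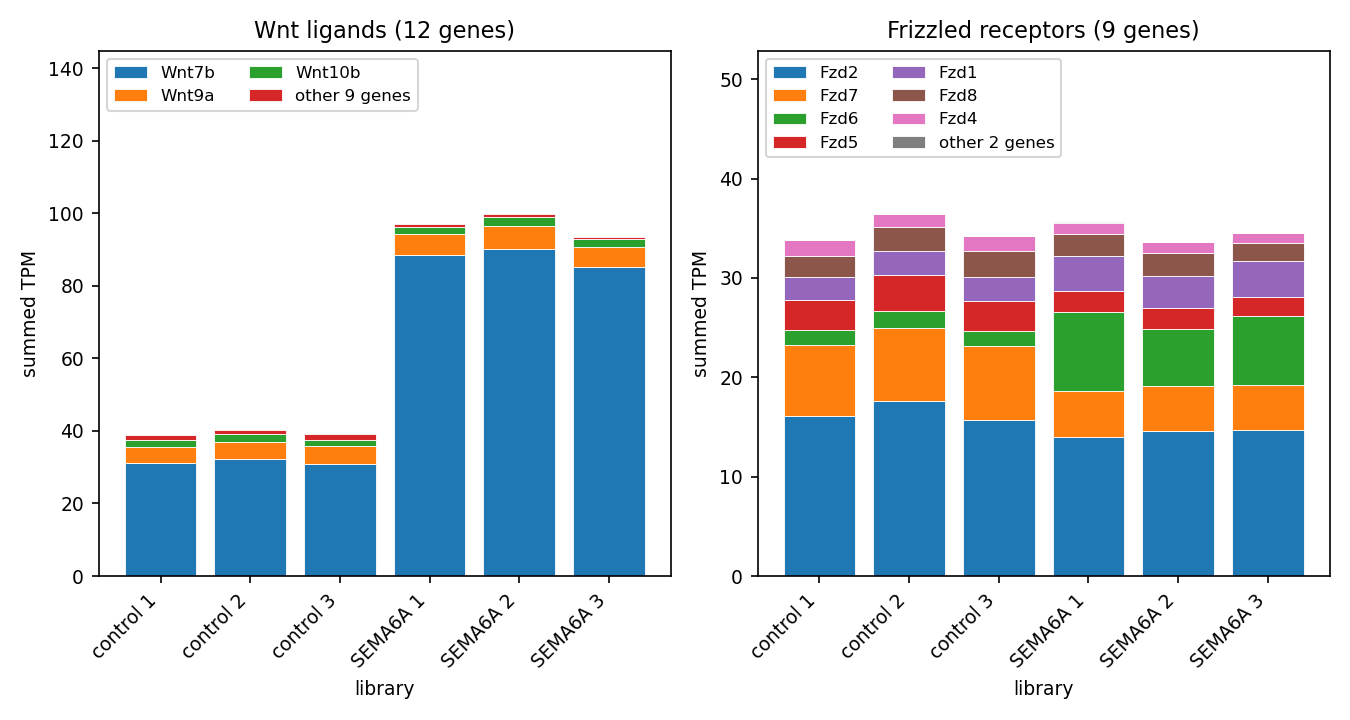
Summed TPM (vertical axis, linear from 0) of the 12 Wnt ligands and of the 9 Frizzled receptors in each of the 6 libraries, stacked by gene. The ligand sum lies at 38.94 to 40.16 TPM in control and 93.37 to 99.83 TPM in pLV-SEMA6A, while the Frizzled sums of both groups lie between 33.66 and 36.46 TPM with a larger share of Fzd6 in pLV-SEMA6A.

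The genes that prepare and export ligands differed in opposite directions. Porcn, the acyltransferase that attaches the lipid to Wnt proteins in the endoplasmic reticulum, fell from 1.95, 1.82 and 1.87 TPM in control to 0.80, 1.01 and 0.51 TPM in pLV-SEMA6A. The groups did not overlap, and the log2 fold change was -0.71 with a standard error of 0.17 and a limma adjusted p of 0.0137. It passed the filter through its control level, since the pLV-SEMA6A mean was 0.773 TPM, and with a pseudocount of 0.1 its log2 fold change was -1.22. Wls, the carrier that takes lipid-modified Wnt proteins to the cell surface, was the most abundant member, at 80.53, 79.41 and 83.19 TPM in control and 111.39, 109.84 and 106.51 TPM in pLV-SEMA6A. Its libraries also did not overlap, and its log2 fold change of 0.43 (limma adjusted p = 1.21e-04) stayed under the minimum of 0.5, or passed it at 0.52 with centred libraries.

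Fzd6 rose more than any other member. This Frizzled is best known for orienting hairs and skin cells through the planar polarity branch. It was at 1.57, 1.71 and 1.51 TPM in control and 8.01, 5.75 and 7.0 TPM in pLV-SEMA6A, so each pLV-SEMA6A library lay above each control library. The control mean was 1.60 ± 0.103 TPM against 6.92 ± 1.13 TPM with SEMA6A (SD, n = 3 each), a ratio of 4.33. The log2 fold change was 1.60 with a standard error of 0.13 and a limma adjusted p of 1.66e-04, and it ranked 57 among all tested genes ordered from the highest change. It ranged from 1.5 to 1.71 with any 1 library left out.

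Fzd7, a receptor used by intestinal stem cells, fell from 7.08, 7.33 and 7.44 TPM in control to 4.54, 4.52 and 4.45 TPM in pLV-SEMA6A. The pLV-SEMA6A libraries lay close together and below all control libraries. The log2 fold change was -0.59 with a standard error of 0.07 and a limma adjusted p of 7.40e-04. On the centred scale it was -0.50, within the limit, as given above.

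Fzd2, a receptor for both pathway branches, was the most abundant Frizzled, at 16.13, 17.62 and 15.73 TPM in control and 14.04, 14.58 and 14.74 TPM in pLV-SEMA6A. Its log2 fold change of -0.18 had a limma adjusted p of 0.0456, which was 0.0515 to 0.124 with any 1 library left out and 0.290 with centred libraries, so its difference rested on the scale and on all 6 libraries. Fzd1 was at 2.30, 2.42 and 2.46 TPM in control and 3.52, 3.23 and 3.63 TPM in pLV-SEMA6A. Its groups did not overlap, with a log2 fold change of 0.39 and a limma adjusted p of 0.0184, and 0.0517 to 0.0589 without control replicate 1, pLV-SEMA6A replicate 1 or pLV-SEMA6A replicate 3. With a pseudocount of 0.1 it passed the minimum fold at 0.51. Fzd5, a receptor needed by Paneth cells, was at 2.97, 3.63 and 3.0 TPM in control and 2.12, 2.16 and 1.89 TPM in pLV-SEMA6A. It too did not overlap, with a log2 fold change of -0.46 and a limma adjusted p of 0.0201, and 0.0664 without control replicate 2 or 0.0575 without pLV-SEMA6A replicate 3. With a pseudocount of 0.1 it also passed the minimum fold, at -0.61. Of the 31-base stretches of Fzd5 transcripts, 17.2% also occur in transcripts of other genes, against 2.66% for Fzd6 and 0.777% for Fzd7.

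Fzd4, the receptor of retinal vessels, had means of 1.48 and 1.06 TPM, a log2 fold change of -0.27 and a limma adjusted p of 0.171. Its groups did not overlap, and without limma's trend the adjusted p was 0.0150. Fzd8, close in sequence to Fzd5, overlapped between groups with means of 2.38 and 2.09 TPM and a limma adjusted p of 0.421. Fzd3 and Fzd9 lay at or below 0.12 TPM. The 9 Frizzled genes together summed to 34.8 ± 1.42 TPM without and 34.6 ± 0.981 TPM with SEMA6A (SD, n = 3 each), so the sums overlapped while their makeup differed. Fzd6 took 4.58% ± 0.145 of the sum in control and 19.9% ± 2.72 in pLV-SEMA6A. The share of Fzd7 was 20.9% ± 0.828 and 13.0% ± 0.362, and that of Fzd2 47.3% ± 1.19 and 41.8% ± 2.09.

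**Figure D3:**
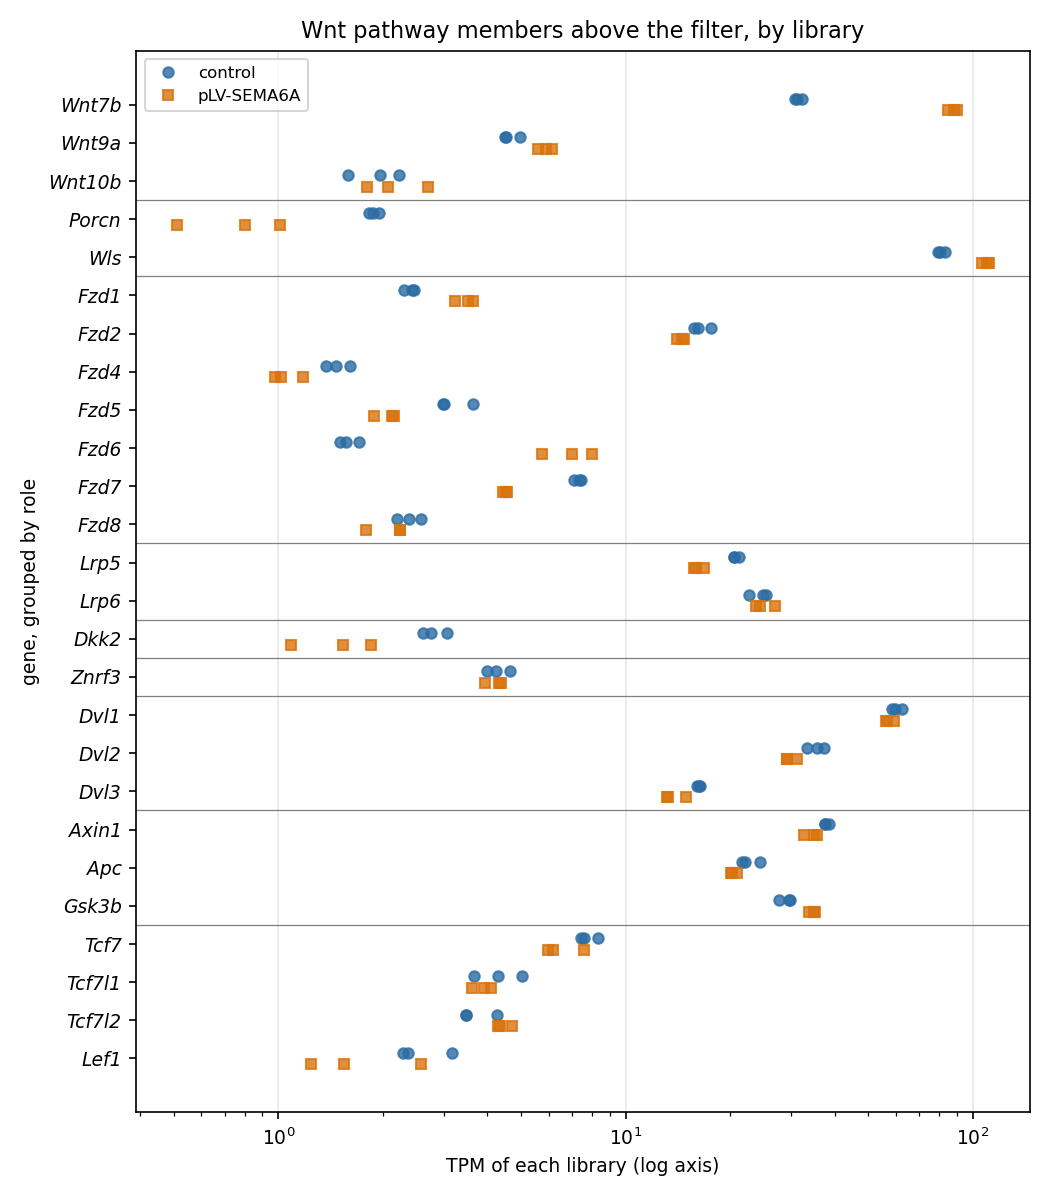
TPM of each library (horizontal axis, log scale) for the 26 tested members grouped by role, with circles for control and squares for pLV-SEMA6A. Wls, Dvl1 and Wnt7b are among the most abundant, and the 2 groups are widely apart for Wnt7b, Fzd6, Porcn and Dkk2 and overlap for genes such as Lrp6 and Znrf3.

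The LRP co-receptors, which share the job of binding Axin after a ligand arrives, differed from each other. Lrp5 was at 20.58, 20.51 and 21.18 TPM in control and 15.76, 16.83 and 15.94 TPM in pLV-SEMA6A, with no overlap, a log2 fold change of -0.34 and a limma adjusted p of 0.00148. Lrp6 was at 25.44, 24.89 and 22.64 TPM in control and 24.45, 26.89 and 23.78 TPM in pLV-SEMA6A. Its groups overlapped, and the log2 fold change of 0.04 (limma adjusted p = 0.650) had an interval from -0.12 to 0.20. The difference between these 2 changes was not tested.

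Of the secreted antagonists, only Dkk2 was abundant enough to test. Dkk2, which binds LRP5 and LRP6 and keeps them from the ligand, fell from 3.05, 2.75 and 2.61 TPM in control to 1.54, 1.85 and 1.09 TPM in pLV-SEMA6A. The groups did not overlap, and the log2 fold change was -0.62 with a standard error of 0.16 and a limma adjusted p of 0.0174. Without control replicate 1 the log2 fold change was -0.57 with an adjusted p of 0.0560, and without pLV-SEMA6A replicate 3 it was -0.50, within the limit, with an adjusted p of 0.0393. Dkk1 and Sfrp1 were listed at 0 throughout, and Dkk3, Sfrp2 and Notum, which takes the lipid off Wnt proteins, stayed at or below 0.19 TPM.

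The feedback genes were mostly low in these cells. Axin2, the commonly read beta-catenin target, was at 0.31, 0.66 and 0.37 TPM in control and 0.29, 0.42 and 0.08 TPM in pLV-SEMA6A, so the groups overlapped below the filter. Nkd1 and Nkd2, inhibitors of Dishevelled, reached at most 0.14 TPM, and Rnf43, a ligase that removes Frizzled receptors from the surface, at most 0.04 TPM. Znrf3, the relative of Rnf43, was the feedback gene that could be tested, with means of 4.29 ± 0.329 and 4.21 ± 0.240 TPM (SD, n = 3 each). With limma its change on the log2 scale was -0.02 (adjusted p = 0.879) with an interval from -0.24 to 0.20, and on the centred scale it was 0.07. Fitted without the filter, 0 of the 20 low members passed, the lowest limma adjusted p among them being 0.114.

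**Figure D4:**
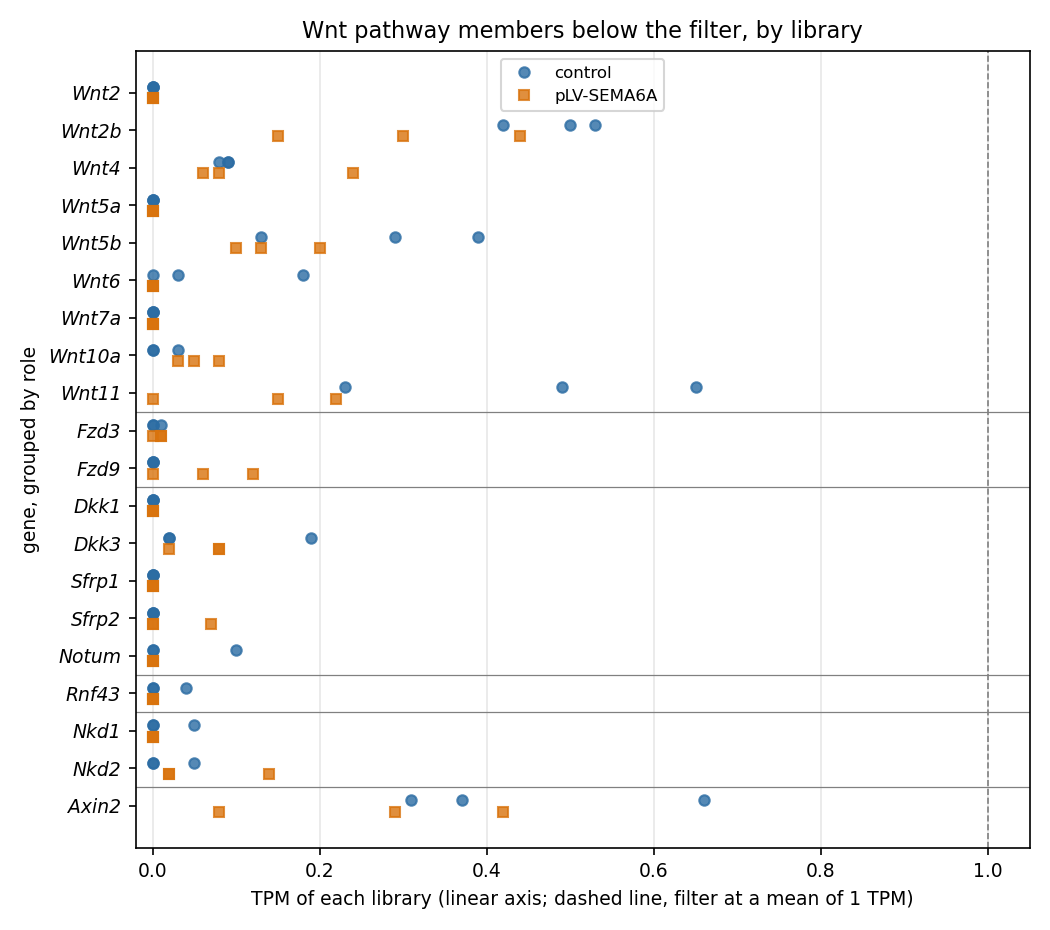
TPM of each library (horizontal axis, linear) for the 20 members below a mean of 1 TPM, with circles for control, squares for pLV-SEMA6A and a dashed line at the filter. All values lie at or below 0.66 TPM, the highest being Axin2 in 1 control library.

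The Dishevelled genes, which relay the signal from Frizzled to the destruction complex, were abundant. Dvl1 was at 62.65, 59.49 and 58.58 TPM in control and 56.23, 59.17 and 56.45 TPM in pLV-SEMA6A, an overlap with a log2 fold change of -0.07 and a limma adjusted p of 0.189. On the centred scale its log2 fold change was 0.02, with a limma adjusted p of 0.67. Dvl2 was at 35.64, 33.30 and 37.39 TPM in control and 29.07, 31.21 and 29.14 TPM in pLV-SEMA6A. It had no overlap and a log2 fold change of -0.24 (limma adjusted p = 0.0126, or 0.0622 with centred libraries), and 16.6% of its 31-base stretches occur in other genes. Dvl3 was at 16.43, 16.26 and 16.02 TPM in control and 13.22, 14.89 and 13.15 TPM in pLV-SEMA6A. Its log2 fold change was -0.23 with a limma adjusted p of 0.0233, which was 0.110 with centred libraries and 0.0550 to 0.0714 in each fit that left out 1 library other than pLV-SEMA6A replicate 2. The changes of all 3 were under the minimum fold, and none of them passed with centred libraries.

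In the destruction complex, Gsk3b, the kinase that marks beta-catenin, was higher at 35.20, 34.98 and 33.77 TPM in pLV-SEMA6A against 29.70, 27.67 and 29.54 TPM in control. Its log2 fold change was 0.25 with a limma adjusted p of 0.00407, and the groups did not overlap. Axin1, the scaffold, was at 37.45, 38.56 and 37.41 TPM in control and 32.59, 35.52 and 34.95 TPM in pLV-SEMA6A. The log2 fold change of -0.14 had a limma adjusted p of 0.0454, which was 0.478 with centred libraries and 0.0731 to 0.124 in each fit that left out 1 library other than pLV-SEMA6A replicate 2. Apc, the tumour suppressor that is most often lost in colorectal cancer, was at 22.13, 21.70 and 24.32 TPM in control and 20.88, 20.30 and 20.13 TPM in pLV-SEMA6A, and its log2 fold change of -0.14 had a limma adjusted p of 0.0724. Summed over the 4 members of this role the level was 89.9 ± 1.55 TPM without and 89.7 ± 1.31 TPM with SEMA6A (SD, n = 3 each). The sum leaves out Csnk1a1 and Amer1, which are in the lists of other pathway genes. Csnk1a1 was higher in pLV-SEMA6A, at a mean of 312 against 245 TPM (log2 fold change 0.35, limma adjusted p = 1.04e-04). Amer1 was lower, at 1.81 against 4.18 TPM (log2 fold change -0.89, limma adjusted p = 8.27e-04). Both were added after their values were seen.

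The TCF/LEF factors carry beta-catenin to DNA, and 0 of the 4 passed limma with the fit of all libraries. Tcf7 was the most abundant, with means of 7.78 and 6.57 TPM and a log2 fold change of -0.22 (adjusted p = 0.121, or 0.0334 without pLV-SEMA6A replicate 2). Tcf7l1, a repressor of target genes, had means of 4.33 and 3.87 TPM. Tcf7l2, the main factor of the intestinal epithelium, had means of 3.73 and 4.45 TPM and a log2 fold change of 0.21 with an interval from -0.04 to 0.46. Lef1 was at 2.37, 2.29 and 3.17 TPM in control and 1.24, 1.55 and 2.57 TPM in pLV-SEMA6A. The third pLV-SEMA6A library of Lef1 lay within the control range, the log2 fold change was -0.39 (limma adjusted p = 0.169), and without that library it was -0.59 with an adjusted p of 0.0464. Of the Lef1 stretches of 31 bases, 14.7% also occur in other genes.

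Other genes of the pathway gave context for these members. From lists of 130 further genes, 80 could be tested, 14 were called with 3 higher and 11 lower, and 39 passed without a minimum fold, 16 higher and 23 lower. Of all genes tested, 15.9% were called, 5.12% higher and 10.8% lower, and 47.6% passed without a minimum fold, so these shares were near those of all genes. With centred libraries 16 were called, 7 higher and 9 lower, beside 1963 of all 12510 genes, 1002 higher and 961 lower. Their median change was -0.07 on the log2 scale, beside -0.06 for all genes. Ctnnb1, which encodes beta-catenin, was at 205.26, 209.41 and 203.31 TPM in control and 268.87, 271.19 and 280.73 TPM in pLV-SEMA6A, for a log2 fold change of 0.41 with a limma adjusted p of 6.32e-05. It was thus higher in each pLV-SEMA6A library, within the minimum fold on the deposited scale and just past it at 0.50 with centred libraries (adjusted p = 4.01e-05).

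Among 29 known beta-catenin target genes, 16 were tested. Of these, 3 were called and 11 passed without a minimum fold, 6 higher and 5 lower, beside 15.9% and 47.6% of all genes. Ccnd1, which encodes cyclin D1, rose from a mean of 107 to 168 TPM with a log2 fold change of 0.65 (limma adjusted p = 6.88e-06). Sox9, a factor of intestinal crypts, rose from 12 to 18.9 TPM with a log2 fold change of 0.61, and Twist1, a factor of mesenchymal cells, fell with a log2 fold change of -0.55, or -0.46 and no longer called with centred libraries. On that scale 4 target genes were called, Ccnd1, Sox9, Id2 and Birc5, all higher. Of all genes, 1963 were called on it, 1002 of them higher. Without the minimum fold Jun, Fosl1, Fn1, Vegfa and Twist1 passed there as lower, and Cd44, Ppard and Ccnd2 also as higher. Those named are all the target genes that passed on it. Myc had means of 232 and 223 TPM and a log2 fold change of -0.06 (limma adjusted p = 0.209). On the centred scale its log2 fold change was 0.04 (limma adjusted p = 0.387). Lgr5, Sp5 and Ascl2, which mark intestinal stem cells or strong pathway activity, stayed at or below 0.15 TPM in every library.

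Receptor partners outside the members were called as lower or did not pass, with the exception of Ryk at a log2 fold change of 0.25. Of 13 such genes 7 were tested, 3 were called and all 3 fell, beside 15.9% of all genes called and 10.8% called lower. Gpc4, a glypican that holds Wnt proteins at the surface, fell from 8.04 to 3.17 TPM with a log2 fold change of -1.12 (limma adjusted p = 5.46e-04). Adgra2, which with Reck forms a co-receptor specific for Wnt7 ligands, fell from 33.3 to 20.8 TPM with a log2 fold change of -0.66 (limma adjusted p = 1.02e-04). Reck itself was at 3.54, 3.57 and 3.70 TPM in control and 2.33, 2.29 and 3.28 TPM in pLV-SEMA6A, for a log2 fold change of -0.35 with a limma adjusted p of 0.0713. Reck and Ryk fall outside the rule for named genes and were added after their values were seen, Reck as the partner of Adgra2.

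Lgr6, an R-spondin receptor, fell from 12.6 to 7.35 TPM with a log2 fold change of -0.71 (limma adjusted p = 0.00672), and Lgr4, another, did not pass at -0.11 (limma adjusted p = 0.432). The antagonists Sfrp4 and Apcdd1 moved in opposite directions, at log2 fold changes of -0.84 and 0.60 with limma adjusted p of 0.00192 and 7.88e-04. Of the other intracellular genes, 4 of 22 tested were called, all lower, beside 15.9% of all genes called and 10.8% called lower. Among them were Caprin2 at -0.75 and Dact3 at -0.51. With centred libraries 1 of the 22 was called higher and 3 lower, beside 1002 higher and 961 lower of all 12510 genes. Dact3 was not called on that scale, at -0.41. Caprin2 promotes phosphorylation of LRP co-receptors, and Dact3 inhibits Dishevelled.

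**Figure D5:**
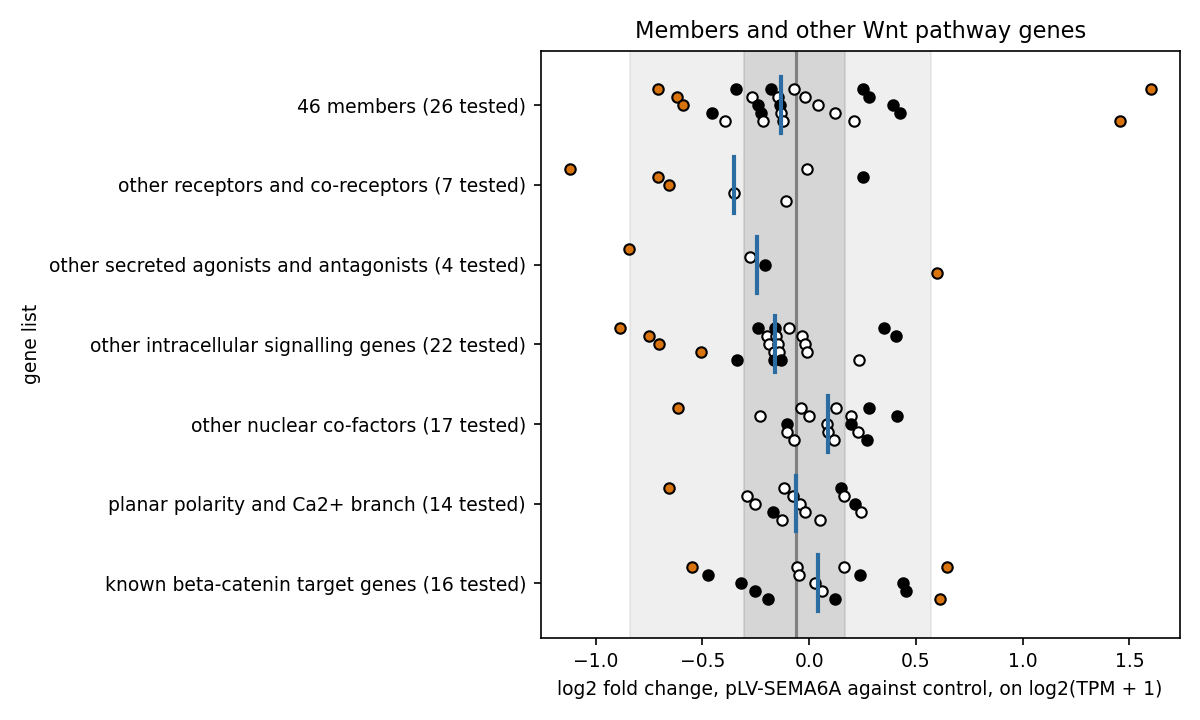
Log2 fold change (horizontal axis, on log2(TPM + 1)) of each tested gene in the members and in 6 lists of other pathway genes, with the same colours as the plot of member changes, a blue tick at each list's median, a grey line at the median of all 12510 genes and bands for the middle 50% and 90% of them. Wnt7b and Fzd6 lie to the right of all other points, and Gpc4 at -1.12 lies farthest to the left.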

How the data were processed

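RNA-seq was measured in 3 control and 3 pLV-SEMA6A libraries of SL4 cells. According to the methods, poly-A mRNA was captured with oligo(dT) beads, fragmented, reverse transcribed with random primers and sequenced by Illumina. The deposited values are TPM per gene with 2 decimals. The submitters' processing notes name Bowtie2, HISAT, RSEM and the build mm39, without role or version, and the annotation is not given in the sources used here. The authors' group means were not used. TPM keeps no depth, so no counting interval was possible, and a gene listed at 0 may be a failed estimate.

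Groups came from the sample titles. Genes that averaged 1 TPM or more over the 6 libraries (12510 of 53700) were fitted on log2(TPM + 1) with limma 3.58.1 (trend) in R 4.3.3, with group as the only term and Benjamini-Hochberg adjustment over all of them. An adjusted p under 0.05 with an absolute log2 fold change over 0.5 was called. DESeq2, which the study's methods name, needs counts and was not run, nor was edgeR. An exact permutation test of 3 against 3 cannot go below p = 0.1. Intervals are 95% limma intervals. The fit was tested on simulated data. The table sums to 984475 to 986444 TPM in control and 977400 to 977972 TPM in pLV-SEMA6A libraries. Sharing of 31-base stretches was computed from GENCODE M21 transcripts.

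The members and gene lists were chosen with earlier results of these data known. All 46 members are named, with every library's value for those called, those with a mean of at least 10 TPM in either group and those called only under an alternative. Of other pathway genes, 8 were named whatever their values, together with called genes of at least 5 TPM. Alternatives were the pseudocount, the filter, median centring, a replicate block, the fit without trend, other minimum folds and leaving out each library.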

Additional observations from a re-analysis of the deposited data

How the results depend on the processing

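Wnt7b and Fzd6 were called with a pseudocount of 0.1, with no filter, with centred libraries, with the replicate block, without limma's trend and without any 1 library. Porcn was called in the same fits, but its pLV-SEMA6A level lay under 1 TPM, where values are least certain. A filter at a mean of 5 TPM left 2 members called, 1 higher and 1 lower, beside 1477 of all genes. It left 9 members at an adjusted p under 0.05, since fewer genes were tested. Fzd6, at a mean of 4.26 TPM over the 6 libraries, was among the members no longer tested. With no minimum fold change 15 members (6 higher, 9 lower), 5959 of all genes and 39 other pathway genes were called, and a minimum log2 change of 1 gave 2 members (0 lower), 385 of all genes and 1 other pathway gene. The median log2 fold change of the members was -0.071 with no filter, where more genes entered, and -0.041 with centred libraries. Leaving out 1 library gave 4 to 5 called members, beside 1900 to 1975 of all genes, and 9 to 14 members at an adjusted p under 0.05. Both member counts were lowest without control replicate 1. Without pLV-SEMA6A replicate 3, Lef1 took the place of Dkk2. Changes of direction were seen only among genes that did not pass: Lrp6 at -0.0087 without control replicate 3 and -0.010 without pLV-SEMA6A replicate 2, Znrf3 at 0.028 without control replicate 3, 0.019 without pLV-SEMA6A replicate 3 and 0.074 with centred libraries, and, also with centred libraries, Dvl1 at 0.022 and Myc at 0.036. With any 1 library left out, Lrp6 ranged from -0.010 to 0.075 and Znrf3 from -0.060 to 0.028. Replicate numbers did not pair the libraries, as deviations of same-numbered libraries correlated at -0.0795 to -0.0227 and none correlated best with its own number. With the number as a replicate block 5 members (2 higher, 3 lower), 1924 of all genes and 14 other pathway genes were called, and 11 members had an adjusted p under 0.05. Without limma's trend Fzd4 also passed, at an adjusted p of 0.0150. Count tests (edgeR, DESeq2) were not run. Depth is unknown from TPM, and members with a mean under 1 TPM were not compared here beyond the fit with no filter.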

Other observations

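The R-spondins, secreted agonists that protect Frizzled receptors from Rnf43 and Znrf3, were low in these cells, with Rspo3 the highest at 0.72, 1.08 and 0.77 TPM in control and 0.64, 1.24 and 1.03 TPM in pLV-SEMA6A. The groups of Rspo3 overlapped below the filter. Of the 21 listed genes of the planar polarity and calcium branch 14 were tested. Of these, 1 was called and 4 passed limma without a minimum fold, 2 higher and 2 lower, beside 15.9% and 47.6% of all genes. The called gene, Vangl2, a core planar polarity protein, was at 5.34, 6.11 and 5.25 TPM in control and 3.47, 3.46 and 2.62 TPM in pLV-SEMA6A, for a log2 fold change of -0.65 (limma adjusted p = 0.00493). Its relative Vangl1 was at 9.88, 10.50 and 9.47 TPM in control and 8.18, 12.66 and 9.0 TPM in pLV-SEMA6A, with the second pLV-SEMA6A library above all others. Ror1 and Ror2, receptors for Wnt5a, were listed at 0 throughout, as was Wnt5a. Rspo3, Vangl1, Vangl2, Ror1 and Ror2 were chosen after their values were seen.

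Of 19 nuclear co-factors 17 were tested and 6 passed limma without a minimum fold, 4 higher and 2 lower, beside 47.6% of all genes. The one called on the deposited scale was Tle4, a co-repressor of TCF/LEF factors. It fell from a mean of 3.23 to 1.75 TPM with a log2 fold change of -0.62 (limma adjusted p = 0.00591). Tle1 and Tle3, at control means of 34.6 and 32.1 TPM, did not pass (limma adjusted p = 0.117 and 0.999), nor did Tle2. Ctbp1 was higher at 110 against 82.7 TPM, a log2 fold change of 0.41 (limma adjusted p = 5.16e-04). With centred libraries Tle4 at -0.52 and Ctbp1 at 0.50 were called. Tle5, which antagonises such co-repressors, was higher at 359 against 313 TPM, a log2 fold change of 0.20 (limma adjusted p = 9.18e-04). The Tle genes and Ctbp1 were chosen after their values were seen.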
